A study of Mus musculus with 9 samples.

Results

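The 10 interferon-inducible genes were followed in the colon of mice with dextran sodium sulfate (DSS) colitis that did or did not receive electroacupuncture (EA). They were 4 guanylate-binding proteins (*Gbp2*, *Gbp3*, *Gbp6* and *Gbp7*), 4 immunity-related GTPases (*Irgm1*, *Igtp*, *Iigp1* and *Tgtp2*) and 2 chemokines that bind the receptor CXCR3 (*Cxcl9* and *Cxcl10*). The genes were chosen by symbol, and all 10 were found among the 27719 genes of the count table and passed the filter on low counts with 12566 genes in all. Colon RNA of C57BL/6J mice was sequenced as full-length cDNA on a Nanopore instrument, with 1 library per mouse and 3 mice per group. Control mice drank distilled water, and mice of the DSS and DSS + EA groups drank 2.5% DSS for 7 days, a chemical that injures the colonic epithelium. The DSS + EA mice were held in a frame and given EA at both ST36 (Zusanli) points of the hind limbs once a day for 5 days, starting after 5 days of modelling, for 30 min at 2 Hz and 0.2 mA. Control and DSS mice were held for the same time without EA, and no group had DSS with a needle but no current. Age and sex of the mice are not given in the sources used here.

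Interferon-γ is released mainly by T and NK cells and binds the receptor IFNGR1/IFNGR2, which signals through the kinases JAK1 and JAK2. Signalling leads to binding at a palindromic element called GAS and to induction of *Irf1*, whose product binds the interferon-stimulated response element (ISRE). Type I interferons act through a complex with STAT2 and IRF9 that binds the ISRE, so many genes answer to both kinds of interferon. Guanylate-binding proteins and immunity-related GTPases gather on the vacuoles of intracellular microbes and damage them. IRGM1 and IGTP (Irgm3) belong to the regulatory branch of the latter family and keep effectors such as IIGP1 (Irga6) and TGTP2 inactive on the membranes of the cell itself. CXCL9 and CXCL10 draw activated T cells and NK cells that carry CXCR3.

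The genes lie in clusters. In GRCm38, *Gbp7* (chr3:142530342-142550149), *Gbp3* (chr3:142560026-142573209) and *Gbp2* (chr3:142620602-142638008) follow each other on the + strand of chromosome 3, and *Gbp6* (chr5:105270702-105293698) is on the − strand of chromosome 5. *Irgm1* (chr11:48861968-48871683) and *Tgtp2* (chr11:49057194-49064206) are on the − strand and *Igtp* (chr11:58199556-58207591) on the + strand of chromosome 11. *Iigp1* lies apart from these clusters. *Cxcl9* (chr5:92321347-92328079) and *Cxcl10* (chr5:92346638-92348889) are neighbours on the − strand of chromosome 5. GENCODE M21 annotates all 10 as protein-coding. Counts were given per gene, so that a value covers all exons of a gene.

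Short stretches before the RefSeq transcription start are shown because 7 of the 10 genes rose with DSS + EA against DSS and because the elements named above can be read in them. RefSeq promoter entries (GRCm38.p6) matched 8 of the 10 genes, all but *Gbp6* and *Iigp1*. The RefSeq start can differ from the GENCODE start. The *Irgm1* stretch below lies inside the GENCODE span of the gene, and the *Gbp2* stretch reaches past its GENCODE start. The 250 bases before the start were searched on both strands for an ISRE core (GAAA, any 2 bases, GAAA), a GAS element (TTCNNNGAA, a palindrome) and a kappa B element (GGG, any 3 bases, TTCC, bound by NF-κB). An ISRE core was found in 7 of the 8 genes, against 3.46% of all 27025 genes with an entry, and a GAS element in 3 of the 8, against 8.13%. Both elements were found in *Gbp7*, *Igtp* and *Tgtp2* and in 0.400% of all genes. *Cxcl10* had 2 kappa B matches (5.31% of all genes have at least 1), and *Cxcl9* held none of the 3 motifs in this window. A match is a description of the letters and not a measured binding site. The 10 genes were chosen as interferon-inducible, and whether these elements bear on the levels in these mice was not tested. In the sequences below, written 5′ to 3′ along the strand of the gene, capitals mark the matches, and an ISRE core on the opposite strand reads TTTC, any 2 bases, TTTC.
Gbp2 (GRCm38.p6, chr3:142620594-142620623, + strand): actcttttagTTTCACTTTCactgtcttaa
Gbp3 (GRCm38.p6, chr3:142559934-142560025, + strand): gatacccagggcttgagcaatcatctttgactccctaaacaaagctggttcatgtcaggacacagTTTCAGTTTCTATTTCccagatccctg
Gbp7 (GRCm38.p6, chr3:142530226-142530335, + strand): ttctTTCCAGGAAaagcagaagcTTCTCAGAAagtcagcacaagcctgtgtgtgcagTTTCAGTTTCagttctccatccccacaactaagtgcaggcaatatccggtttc
Irgm1 (GRCm38.p6, chr11:48871428-48871457, − strand): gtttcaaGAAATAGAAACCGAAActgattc
Igtp (GRCm38.p6, chr11:58199446-58199555, + strand): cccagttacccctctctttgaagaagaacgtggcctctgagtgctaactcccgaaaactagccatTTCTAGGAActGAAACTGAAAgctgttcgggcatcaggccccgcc
Tgtp2 (GRCm38.p6, chr11:49064213-49064322, − strand): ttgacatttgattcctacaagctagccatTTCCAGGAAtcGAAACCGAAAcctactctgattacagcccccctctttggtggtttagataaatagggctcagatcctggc
Cxcl10 (GRCm38.p6, chr5:92348980-92349109, − strand): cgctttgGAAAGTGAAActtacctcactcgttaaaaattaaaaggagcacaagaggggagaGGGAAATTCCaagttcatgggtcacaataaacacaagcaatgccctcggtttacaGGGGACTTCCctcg
In *Gbp3* and *Irgm1* the capitals cover 2 ISRE cores that overlap by 4 bases. In *Igtp* and *Tgtp2* the GAS element and the ISRE core are separated by the same 2 bases of distance, and *Gbp7* carries 2 GAS elements before its ISRE core.

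**Figure D1:**
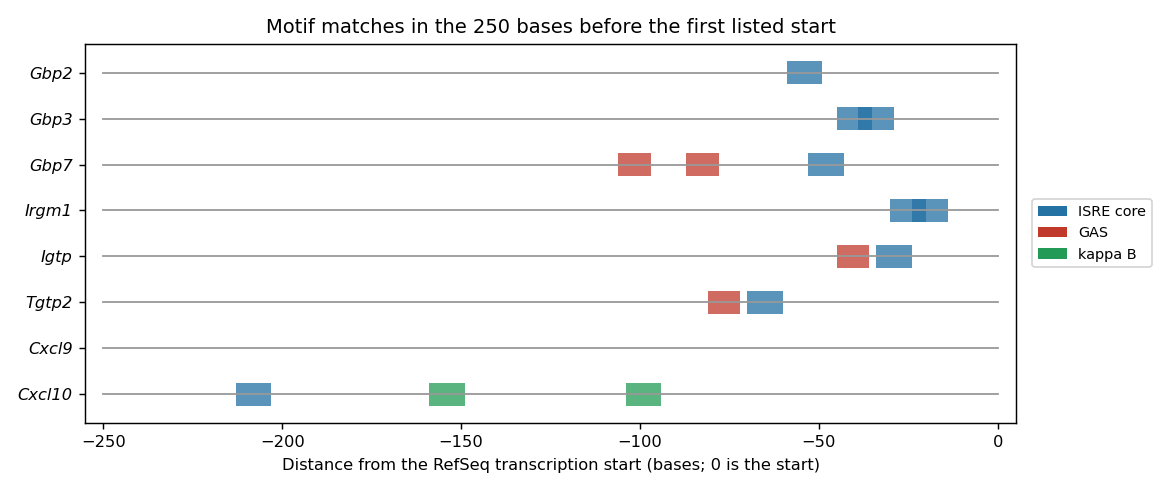
Position of each motif match (coloured boxes) in the 250 bases before the RefSeq transcription start of the 8 genes with an entry; the x axis is the distance from the start in bases. ISRE cores lie between -70 and -15 in 6 genes and from -213 to -204 in *Cxcl10*.

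Each library held 2627695 to 4235576 counts, and 3 counts stood for 0.652 to 1.15 CPM (counts per 1000000 of the library). The epithelial markers of colon were present in every library, with a summed level of 1382 to 28145 CPM. The libraries of 2 mice stood apart in 10 digestive enzyme genes of pancreatic acinar cells. These genes summed to 30059 CPM in DSS + EA mouse 2 and 14987 CPM in DSS + EA mouse 3. The sum was 530 CPM in DSS + EA mouse 1 and 42.4 to 262 CPM in the control and DSS mice. In the control and DSS mice nearly all of it was *Cela1*. Each other gene of the 10 had 0 to 2 counts over the control mice together and 0 to 5 over the DSS mice. DSS + EA mouse 2, with the highest pancreatic level, was the lowest of its group in 9 of the 10 interferon-inducible genes, and DSS + EA mouse 3 was the highest in 9. Counts of genes are therefore also given without these 2 mice, an alternative chosen after seeing the data.

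In level, the DSS + EA group was highest for all 10 genes. Summed over the 10 genes, the level was 72.2, 103 and 153 CPM in the control mice, 81.7, 117 and 259 CPM in the DSS mice and 848, 546 and 969 CPM in the DSS + EA mice. The control and DSS mice overlapped in this sum, and each DSS + EA mouse lay above all 6 others. In 6 of the 10 genes (*Gbp3*, *Gbp7*, *Irgm1*, *Igtp*, *Iigp1* and *Tgtp2*) every DSS + EA mouse lay above every other mouse, as did 5.24% of all genes tested. In a bulk sample, fewer cells of a type and less RNA per cell cannot be told apart.

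**Figure D2:**
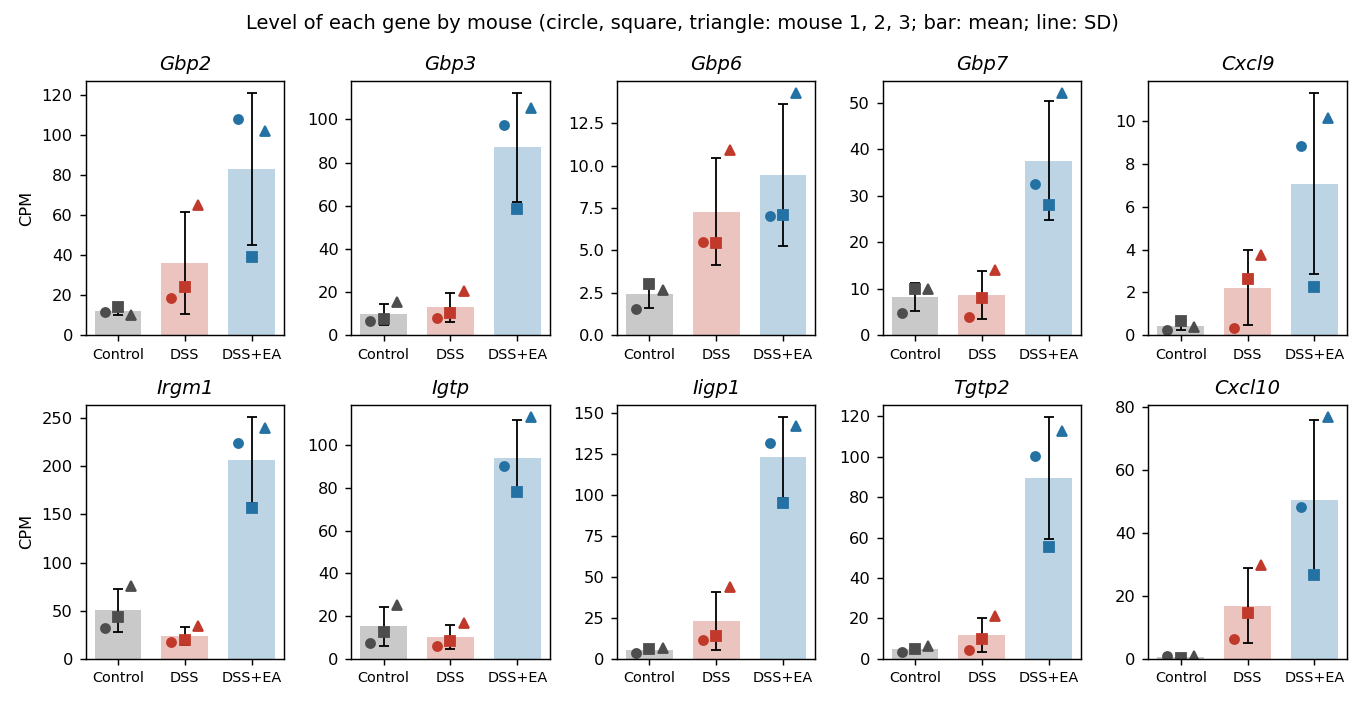
Level of each of the 10 genes in CPM (y axis, from 0) by group, with 1 point per mouse, the mean as a bar and the SD as a line (n = 3 per group). The DSS + EA points stand clear of the other groups in 6 genes, whereas those of *Gbp2*, *Gbp6*, *Cxcl9* and *Cxcl10* reach down into the DSS range.

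Among the guanylate-binding proteins, *Gbp2* and *Gbp6* rose with DSS and showed no further rise past the test with EA, whereas *Gbp3* and *Gbp7* were not called with DSS and rose with DSS + EA. *Gbp2* measured 11.7, 14.0 and 9.96 CPM in control mice 1, 2 and 3, 18.7, 24.1 and 65.2 CPM in DSS mice 1, 2 and 3 and 108, 39.2 and 102 CPM in DSS + EA mice 1, 2 and 3. Its DSS mice all lay above the controls, and DSS + EA mouse 2 fell within the DSS range. The log2 fold change of *Gbp2* was 1.59 for DSS against control (standard error 0.52, adjusted p = 0.0326), 1.21 for DSS + EA against DSS (standard error 0.49, adjusted p = 0.0776) and 2.80 for DSS + EA against control (standard error 0.53, adjusted p = 0.0187). *Gbp6* averaged 2.40 ± 0.774 CPM without DSS, 7.27 ± 3.16 CPM with DSS and 9.46 ± 4.17 CPM with DSS + EA (SD, n = 3 mice each). Its 3 DSS mice, at 5.43 to 10.9 CPM, and its 3 DSS + EA mice, at 7.00 to 14.3 CPM, overlapped, and the log2 fold change between them was 0.39 (standard error 0.41, adjusted p = 0.479). With DSS, *Gbp6* rose by 1.61 on the log2 scale (standard error 0.47, adjusted p = 0.0216). Its coding sequence is 98.4% identical to that of *Gbp10*, so reads could have been divided between the pair. *Gbp10* had between 0 and 7 counts per library.

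*Gbp3* measured 6.61, 7.31 and 15.3 CPM in control mice 1, 2 and 3, 7.72, 10.4 and 20.3 CPM in DSS mice 1, 2 and 3 and 97.4, 58.3 and 105 CPM in DSS + EA mice 1, 2 and 3. The first 2 groups overlapped, and the lowest DSS + EA mouse was above all of them. *Gbp3* had a log2 fold change of 0.41 for DSS against control (standard error 0.44, adjusted p = 0.485) and of 2.77 for DSS + EA against DSS (standard error 0.43, adjusted p = 0.00158), a 6.80-fold rise. *Gbp7*, the neighbour of *Gbp3*, averaged 8.26 ± 2.97 CPM without DSS, 8.65 ± 5.12 CPM with DSS and 37.5 ± 12.8 CPM with DSS + EA (SD, n = 3 mice each). The DSS + EA mice, at 28.0 to 52.0 CPM, were above all others. Its log2 fold change was 0.09 for DSS against control (standard error 0.47, adjusted p = 0.90) and 2.12 for DSS + EA against DSS (standard error 0.45, adjusted p = 0.0064). The coding sequences of *Gbp3* and *Gbp7* are 76.6% identical.

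The immunity-related GTPases were all higher with DSS + EA than with DSS, whereas with DSS alone 1 rose and 1 fell. *Irgm1*, a regulator, measured 31.5, 43.9 and 75.1 CPM in control mice 1, 2 and 3, 17.4, 19.6 and 34.0 CPM in DSS mice 1, 2 and 3 and 224, 156 and 240 CPM in DSS + EA mice 1, 2 and 3. The highest DSS mouse lay just above the lowest control mouse, and the DSS + EA mice were far above both groups. The log2 fold change of *Irgm1* was -1.08 for DSS against control (standard error 0.36, adjusted p = 0.037) and 3.13 for DSS + EA against DSS (standard error 0.38, adjusted p = 0.000585). *Igtp*, the other regulator, measured 7.62, 12.6 and 25.3 CPM in control mice 1, 2 and 3, 5.79, 8.26 and 16.5 CPM in DSS mice 1, 2 and 3 and 90.4, 78.1 and 113 CPM in DSS + EA mice 1, 2 and 3. Control and DSS mice overlapped (log2 fold change -0.56, standard error 0.47, adjusted p = 0.368). *Igtp* was 9.22-fold higher with DSS + EA than with DSS, or 3.20 on the log2 scale (standard error 0.48, adjusted p = 0.00131). In GENCODE M21 the spans of *Igtp* and *Irgm2* overlap on the same strand, so their reads could have been divided.

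The effectors began lower. *Iigp1* measured 3.56, 5.98 and 6.51 CPM in control mice 1, 2 and 3, 11.6, 14.1 and 43.7 CPM in DSS mice 1, 2 and 3 and 131, 95.2 and 142 CPM in DSS + EA mice 1, 2 and 3. The 3 groups did not overlap, so that *Iigp1* rose in 2 steps. The log2 fold change was 2.12 for DSS against control (standard error 0.51, adjusted p = 0.00878) and 2.42 for DSS + EA against DSS (standard error 0.46, adjusted p = 0.00406), and the DSS + EA group was 23.2-fold above the control group (adjusted p = 0.00286). *Tgtp2* measured 3.56, 4.99 and 6.51 CPM in control mice 1, 2 and 3, 4.50, 9.56 and 21.2 CPM in DSS mice 1, 2 and 3 and 100, 55.3 and 113 CPM in DSS + EA mice 1, 2 and 3. DSS mouse 1 fell within the control range, and every DSS + EA mouse was above all others. The log2 fold change of *Tgtp2* was 1.24 for DSS against control (standard error 0.53, adjusted p = 0.0884) and 2.93 for DSS + EA against DSS (standard error 0.49, adjusted p = 0.00227). *Tgtp2* and *Tgtp1* share 99.7% of their coding bases and cannot be separated with certainty in these counts. *Tgtp1* alone gave 1.60 (adjusted p = 0.0274) and 2.54 (adjusted p = 0.00208) on the log2 scale in the same comparisons.

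Since *Irgm1* fell and *Iigp1* rose with DSS, the balance of the pair was computed within each library, a ratio chosen after the values were seen. There were 0.113, 0.136 and 0.0867 *Iigp1* counts per *Irgm1* count in the control mice, 0.667, 0.722 and 1.28 in the DSS mice and 0.586, 0.610 and 0.594 in the DSS + EA mice. The DSS and DSS + EA mice all lay above the controls, and the DSS + EA mice were close to one another and below the DSS mice. The log2 difference was 2.95 for DSS against control, -0.51 for DSS + EA against DSS and 2.44 for DSS + EA against control. These differences are a description: an exact permutation test of 3 mice against 3 cannot give a p under 0.1, and it gave 0.1 in each comparison. The ratio is of read counts and not of transcripts per length.

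The chemokines were near the floor in control colon. *Cxcl10* had control counts of 4, 1 and 2, DSS counts of 20, 67 and 95 and DSS + EA counts of 158, 71 and 242 (mice 1, 2 and 3), a mean of 0.705 ± 0.346, 16.9 ± 11.8 and 50.5 ± 25.2 CPM (SD, n = 3 in each). Control mice lay below all others, and DSS + EA mouse 2 lay within the DSS range. *Cxcl10* had the largest log2 fold change of the 10 genes for DSS against control, 4.46 (standard error 0.75, adjusted p = 0.00145), and for DSS + EA against control, 6.05 (standard error 0.74, adjusted p = 0.00349). Between DSS + EA and DSS it was 1.58 (standard error 0.52, adjusted p = 0.0376). *Cxcl9* had control counts of 1, 2 and 1, DSS counts of 1, 12 and 12 and DSS + EA counts of 29, 6 and 32 (mice 1, 2 and 3). DSS mouse 1 was as low as the controls and DSS + EA mouse 2 lay below 2 DSS mice. Summed over the mice and set against library size, *Cxcl9* was 5.47-fold higher with DSS than in control (95% exact binomial interval 1.89 to 21.6) and 17.6-fold higher with DSS + EA (6.55 to 66.3). These intervals cover counting error only. In the fit across all genes, its change was not called for DSS (adjusted p = 0.082) or for DSS + EA against DSS (adjusted p = 0.075), and was called for DSS + EA against control (adjusted p = 0.0374).

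DSS against control asks how the injury itself moved these genes, and the share called was near that of all genes. With DSS, 4 of the 10 genes rose (*Gbp2*, *Gbp6*, *Iigp1* and *Cxcl10*) and 1 fell (*Irgm1*) at an adjusted p under 0.05, where 21.5% of all genes tested rose and 19.5% fell (40.9% in either direction). Their median log2 fold change was 1.42, against 0.02 for all genes tested. The DSS mice lay above the control mice without overlap in 4 of the 10, against 26.2% of all genes. At the thresholds of the study (log2 fold change beyond 2.5 and unadjusted P under 0.01) 6.62% of all genes were higher and 10.2% passed in either direction, and of the 10 genes only *Cxcl10* passed. The number called was 3 without control mouse 1, control mouse 2 or DSS mouse 3, 2 without control mouse 3, and 4 without DSS + EA mice 2 and 3. The call of *Gbp2* was lost without any 1 control mouse (log2 fold change 1.54, 1.68 and 1.45 without control mice 1, 2 and 3) and without DSS mouse 3 (0.85). That of *Gbp6* was lost without control mouse 1 (1.30), control mouse 3 (1.66) or DSS mouse 3 (1.20). That of *Irgm1* was lost without control mouse 2 (-1.20), control mouse 3 (-0.70), DSS mouse 1 (-0.93) or DSS mouse 2 (-0.94), without DSS + EA mice 2 and 3 together (-1.11), and with the 2 groups fitted alone (-1.05, adjusted p = 0.0705). *Tgtp2* and *Cxcl9* were called without DSS mouse 1, at 1.59 (adjusted p = 0.0165) and 2.76 (adjusted p = 0.0209).

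DSS + EA against DSS asks what EA added to the injured colon. In this comparison 7 of the 10 genes rose and none fell, where 17.2% of all genes tested rose and 18.3% fell (35.5% in either direction). The 7 were *Gbp3*, *Gbp7*, all 4 immunity-related GTPases and *Cxcl10*, and the other 3, *Gbp2*, *Gbp6* and *Cxcl9*, had log2 fold changes of 1.21, 0.39 and 1.65. The median of the 10 was 2.27, against -0.02 for all genes. The groups did not overlap in 6 of the 10, against 24.2% of all genes, and 4 (*Gbp3*, *Irgm1*, *Igtp* and *Tgtp2*) passed the thresholds of the study, against 2.91% of all genes that were higher and 6.41% in either direction. The 6 GTPases among the 7 stayed called when any 1 mouse was left out. *Cxcl10* was not called without DSS + EA mouse 1 (log2 fold change 1.61), DSS + EA mouse 3 (1.13), DSS mouse 1 (1.23) or DSS mouse 2 (1.47), nor with the 2 groups fitted alone (1.60, adjusted p = 0.074) or with only genes of a mean of at least 20 counts (1.51, adjusted p = 0.0536). *Gbp2* was called without DSS + EA mouse 2 (1.58) or DSS mouse 3 (1.95) and without a filter on low counts (1.29, adjusted p = 0.0474), and *Cxcl9* without DSS + EA mouse 2 (2.09). Without DSS + EA mice 2 and 3, which left 1 mouse in that group, assumed to vary like the other groups, *Gbp3*, *Irgm1*, *Igtp* and *Tgtp2* were called, with log2 fold changes of 2.95, 3.27, 3.17 and 3.11. *Gbp7* (1.93, adjusted p = 0.0876), *Iigp1* (2.53, adjusted p = 0.0531) and *Cxcl10* (1.53, adjusted p = 0.162) were then not called.

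DSS + EA against control shares its EA mice with the previous comparison and its control mice with the first. All 10 genes were higher with DSS + EA than in control, where 3.00% of all genes tested were higher and 0.637% lower (3.64% in either direction). The log2 fold changes ran from 2.00 (*Gbp6*) to 6.05 (*Cxcl10*), with a median of 2.99 against 0.00 for all genes. The groups did not overlap in any of the 10, against 18.0% of all genes that were higher without overlap, and 7 of the 10 passed the thresholds of the study, against 1.74% of all genes that were higher and 2.08% in either direction. The log2 fold change was 3.18 for *Gbp3* (standard error 0.45), 4.54 for *Iigp1* (standard error 0.53), 4.17 for *Tgtp2* (standard error 0.54) and 6.05 for *Cxcl10* (standard error 0.74). These 4 stayed called when any 1 mouse was left out. The number called was 4 without control mouse 1, control mouse 2 or DSS + EA mouse 3, 6 without control mouse 3 or DSS + EA mouse 1, 8 without DSS mouse 2 and 9 without DSS + EA mouse 2. Without DSS + EA mice 2 and 3 it was 3 (*Iigp1*, *Tgtp2* and *Cxcl10*). *Gbp6*, at an adjusted p of 0.0481, was not called with RLE scaling (adjusted p = 0.0513), plain library totals (adjusted p = 0.0513) or genes of a mean of at least 20 counts (adjusted p = 0.0585). The 6 genes whose call was lost in some of the fits without 1 mouse kept log2 fold changes between 1.53 (*Gbp6*) and 4.38 (*Cxcl9*).

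**Figure D3:**
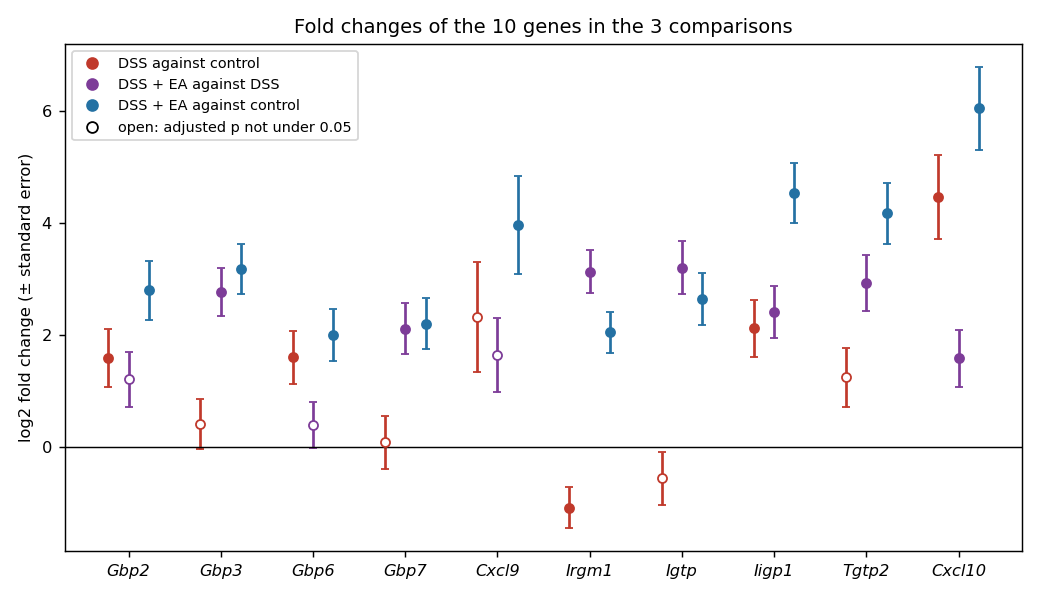
Log2 fold change of each gene (y axis, points with standard errors) in the 3 comparisons (colours), with open points where the edgeR adjusted p was not under 0.05. The 10 DSS + EA against control points run from 2.00 to 6.05, whereas the DSS against control points run from -1.08 to 4.46.

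In these groups the order of levels differed by gene. *Iigp1* was ordered control, DSS, DSS + EA with every step past the test, as was *Cxcl10*, whose second step overlapped. *Gbp2* and *Gbp6* had control below DSS, and no step past the test from DSS to DSS + EA. *Gbp3*, *Gbp7*, *Igtp* and *Tgtp2* had no step past the test from control to DSS, and DSS + EA above both. *Irgm1* had DSS lowest, then control, then DSS + EA. Across the 9 libraries, Pearson's r between the log2 CPM of 2 of the genes ran from 0.421 (*Irgm1* with *Gbp6*) to 0.984 (*Tgtp2* with *Gbp3*). These points share group, library and depth, and r is given as a description. Within groups, DSS mouse 3 was the highest DSS mouse in all 10 genes and DSS mouse 1 the lowest in 9, and control mouse 1 was the lowest control mouse in 8.

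Further GTPase genes were read in the same fit. Of 20 such genes, mostly of the 2 families above, 18 were in the table and 13 passed the filter. The 13 include *Gvin1* and *Gm4070*, very large inducible GTPases of neither family. With DSS, 3 of these 13 rose and 3 fell, *Gm4070* among those that fell. With DSS + EA against DSS, 8 rose, *Gm4070* among them, and none fell. Against control 6 rose and none fell. *Irgm2*, the remaining regulator, had control counts of 36, 33 and 53, DSS counts of 9, 11 and 24 and DSS + EA counts of 193, 112 and 209 (mice 1, 2 and 3). Like *Irgm1* it was lowest with DSS, with log2 fold changes of -1.67 (adjusted p = 0.0171) for DSS and 3.73 (adjusted p = 0.000644) for DSS + EA against DSS. *Gbp2b*, 82.5% identical to *Gbp2* in coding sequence, had 12, 17 and 11 control counts, no count in any DSS mouse (0 in each) and 12, 5 and 16 counts with DSS + EA. It was thus at least 5.06-fold lower with DSS than in control (adjusted p = 0.00107) and at least 4.15-fold higher with DSS + EA than with DSS (adjusted p = 0.00223), on a floor of 3 counts per library.

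*Gbp5*, which takes part in inflammasome activation, rose with DSS and was not called for DSS + EA against DSS. *Gbp2*, *Gbp6* and *Gm4951* had the same calls in these comparisons. For *Gbp5*, every control mouse had 4 counts, the DSS mice 5, 51 and 77 and the DSS + EA mice 49, 17 and 47. Its log2 fold change was 3.23 for DSS (adjusted p = 0.0133) and -0.01 for DSS + EA against DSS (adjusted p = 0.992). *Gm4951*, an *Iigp1*-like gene with 86.1% of coding bases shared, had control counts of 2, 0 and 0 and rose with DSS, 28.4-fold in summed counts (95% exact binomial interval 7.56 to 240). *Ifi47* averaged 31.1 ± 21.4 CPM without DSS, 24.0 ± 16.3 CPM with DSS and 164 ± 43.4 CPM with DSS + EA (SD, n = 3 mice each) and rose by 2.78 on the log2 scale for DSS + EA against DSS (adjusted p = 0.00536). *Gm4070* of the very large inducible GTPases fell by 3.10 with DSS (adjusted p = 0.000173) and rose by 3.38 with DSS + EA against DSS (adjusted p = 0.000337), and was near its control level with DSS + EA (log2 fold change 0.28, adjusted p = 0.692).

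The ligand of the pathway was hardly detected. *Ifng* was at 0 counts in each control mouse, at 0, 1 and 0 with DSS and at 3, 1 and 0 with DSS + EA, and did not pass the filter. At this depth a level of up to 3 counts per library, 0.652 to 1.15 CPM, could not be told from 0. The receptor chain *Ifngr1* had 155 ± 15.5, 135 ± 14.1 and 180 ± 21.3 CPM (SD, n = 3 in each) with no change past the test, and *Ifngr2* fell by 1.25 on the log2 scale with DSS (adjusted p = 0.0467).

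The interferon regulatory factors *Irf1*, *Irf2* and *Irf9* fell with DSS and rose with DSS + EA against DSS, *Irf1* by 1.35 (adjusted p = 0.00297), *Irf2* by 1.74 (adjusted p = 0.000386) and *Irf9* by 2.38 (adjusted p = 0.0016). None of these was called against control, where their log2 fold changes were 0.46, 0.10 and 1.15. *Stat2* was not called with DSS (log2 fold change 0.15, adjusted p = 0.745) and rose with DSS + EA, by 1.47 against DSS (adjusted p = 0.00731) and 1.62 against control (adjusted p = 0.0252). Another 4 genes went the other way. *Socs3* and *Ptpn2*, which restrain cytokine signalling, the kinase *Jak2* and *Stat3*, which serves IL-6 among other cytokines, rose with DSS and fell with DSS + EA against DSS, *Socs3* by 4.38 and -1.62 on the log2 scale (adjusted p = 0.00017 and 0.015). *Socs1*, the inhibitor induced by interferon-γ, had 0 to 8 counts per library. Of 15 signalling genes tested, 4 rose and 4 fell with DSS, and 4 rose and 4 fell with DSS + EA against DSS. Among all genes tested, 21.5% rose and 19.5% fell with DSS, and 17.2% rose and 18.3% fell with DSS + EA against DSS. Against control, 2 of the 15 (*Stat2* and *Socs3*) were higher with DSS + EA, as were 3.00% of all genes.

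*Cxcl11*, named for a further CXCR3 ligand, is annotated in GENCODE M21 as a polymorphic pseudogene, which codes for a working protein in some strains only. It had control counts of 0, 0 and 1, DSS counts of 2, 1 and 0 and DSS + EA counts of 14, 2 and 16 (mice 1, 2 and 3). DSS + EA mouse 2 was again low and equalled the highest DSS mouse. Summed counts were 33.5-fold higher with DSS + EA than in control (95% exact binomial interval 5.60 to 1365). *Cxcr3* itself had 0 to 5 counts per library. Of the genes that drive interferon-γ production, *Il12b*, *Il12rb1*, *Il27* and *Tbx21* had 0 to 7 counts per library and were too low to be tested, and *Il12rb2* had 0 counts in all 9 libraries. *Il12a*, a subunit of IL-12, did not pass the filter either, with control counts of 2, 2 and 0, DSS counts of 3, 4 and 22 and DSS + EA counts of 0, 0 and 1 (mice 1, 2 and 3). Its summed counts were 6.34-fold higher with DSS than in control (95% exact binomial interval 2.23 to 24.8) and 24.2-fold higher with DSS than with DSS + EA (4.02 to 989), and DSS mouse 3 gave most of them. Of the 7 genes tested on this list, 4 rose and 1 fell with DSS, and 3 rose and 2 fell with DSS + EA against DSS. *Il18bp*, which neutralises IL-18 and is itself induced by interferon-γ, averaged 7.70 ± 6.32 CPM without DSS, 23.0 ± 1.72 CPM with DSS and 83.6 ± 13.6 CPM with DSS + EA (SD, n = 3 mice each). It was the only one of the 7 that was higher with DSS + EA than in control (log2 fold change 3.47, adjusted p = 0.00445). *Il15* fell by 2.88 with DSS (adjusted p = 0.000556) and rose by 2.58 with DSS + EA against DSS (adjusted p = 0.00163). *Il18rap*, a chain of the IL-18 receptor, and *Il15ra*, of the IL-15 receptor, went the other way. *Il18rap* rose by 4.66 with DSS (adjusted p = 0.000592) and fell by 3.09 with DSS + EA against DSS (adjusted p = 0.00305), and *Il15ra* rose by 1.39 (adjusted p = 0.00596) and fell by 1.20 (adjusted p = 0.0138). *Ebi3* rose with DSS (log2 fold change 3.68, adjusted p = 0.0258) and *Dpp4*, which cleaves CXCR3 ligands, rose with DSS + EA against DSS (1.79, adjusted p = 0.0113).

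Targets of interferon outside the GTPases were counted on lists of 35 interferon-γ and 25 type I interferon targets, all of which passed the filter. Many genes answer to both, so the lists do not separate the 2 kinds of interferon. Of the 35 interferon-γ targets, 7 rose and 10 fell with DSS, where 21.5% of all genes tested rose and 19.5% fell. With DSS + EA against DSS, 21 rose and 2 fell, where 17.2% of all genes rose and 18.3% fell. In DSS + EA against control, 14 were higher and none lower, where 3.00% of all genes were higher and 0.637% lower. *H2-Ab1*, an MHC class II chain, fell by 1.55 on the log2 scale with DSS (adjusted p = 0.00132) and rose by 1.82 with DSS + EA against DSS (adjusted p = 0.00111). *Nmi*, an adaptor of STAT proteins, averaged 84.4 ± 13.1 CPM without DSS, 29.4 ± 5.58 CPM with DSS and 187 ± 27.8 CPM with DSS + EA (SD, n = 3 mice each), and fell and rose in the same comparisons (adjusted p = 0.000626 and 0.000161). The 2 that fell with DSS + EA against DSS were *Icam1*, an adhesion molecule of leukocytes (log2 fold change -2.80, adjusted p = 0.000856), and *Serping1*, the C1 inhibitor (-1.17, adjusted p = 0.00111), and both stayed above control (1.94 and 1.18).

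The type I interferon targets that were called moved in 1 direction in each comparison. None of the 25 rose with DSS and 15 fell, with a median log2 fold change of -1.63. All 25 rose with DSS + EA against DSS, with a median of 4.13, and 15 were higher with DSS + EA than in control, with a median of 2.22. In 24 of the 25 every DSS + EA mouse lay above every other mouse. *Ifit1*, which binds foreign RNA, averaged 151 ± 93.3 CPM without DSS, 20.5 ± 9.54 CPM with DSS and 703 ± 139 CPM with DSS + EA (SD, n = 3 mice each). *Irf7*, the transcription factor that amplifies type I interferon, had 265 ± 195, 22.4 ± 5.46 and 652 ± 108 CPM (SD, n = 3 in each). With DSS, *Ifit1* fell by 2.89 (adjusted p = 0.00166) and *Irf7* by 3.56 (adjusted p = 0.000461) on the log2 scale, where *Iigp1* and *Cxcl10* rose. With DSS + EA against DSS they rose by 5.11 (adjusted p = 0.000386) and 4.86 (adjusted p = 0.000359). The difference between this list and the 10 genes was not tested.

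**Figure D4:**
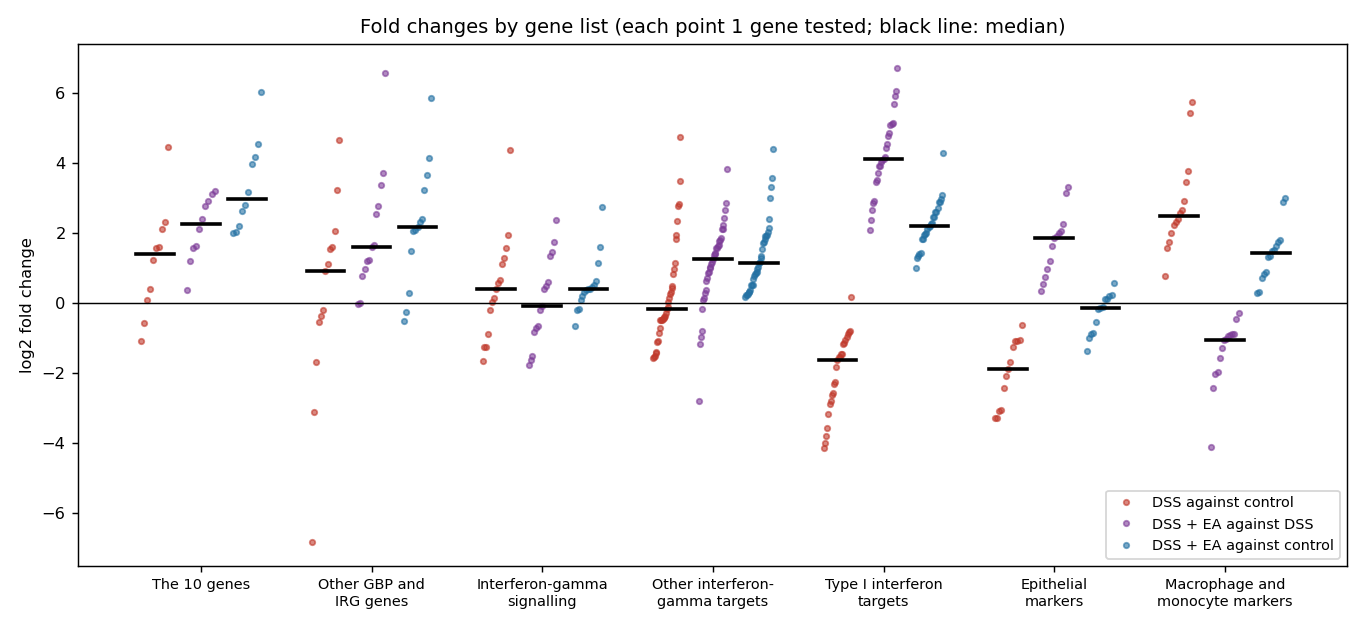
Log2 fold change (y axis) of every tested gene of 7 lists in the 3 comparisons (colours), with the median as a black line. The medians for DSS are 1.42 for the 10 genes and -1.63 for the type I interferon targets, and those for DSS + EA against DSS are 2.27 and 4.13; 1 gene of the other GBP and IRG list, *Gbp2b*, had 0 counts in the DSS group, so its fitted points have no reliable size.

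Marker genes of cell types moved with the groups as well. Of 14 macrophage and monocyte markers, 12 rose with DSS and 8 fell with DSS + EA against DSS, and their summed level was 560 to 628 CPM in the control mice, 1689 to 3576 CPM in the DSS mice and 1093 to 1329 CPM in the DSS + EA mice. Of 11 tested neutrophil markers, all rose with DSS and 9 fell with DSS + EA against DSS, with summed levels of 25.7 to 162, 4639 to 28225 and 1223 to 1612 CPM. Of 13 tested epithelial markers, 9 fell with DSS and 6 rose with DSS + EA against DSS, with summed levels of 11455 to 28145, 1382 to 7084 and 8188 to 14765 CPM. T and NK cell markers were low, summing to 16.6 to 29.9, 13.8 to 37.1 and 45.0 to 50.5 CPM in the 3 groups, with all DSS + EA mice above all others. Of 8 endothelial markers 5 rose with DSS and 5 fell with DSS + EA against DSS, of 11 fibroblast and smooth muscle markers 6 rose and 4 fell with DSS and 4 fell with DSS + EA against DSS, and of 6 tested B and plasma cell markers 1 rose and 1 fell with DSS and 2 rose and 1 fell with DSS + EA against DSS. Of the 12 T and NK cell markers with counts listed, 7 were tested, and 2 of these (*Nkg7*, of cytotoxic granules, and *Xcl1*, a chemokine) fell with DSS and rose with DSS + EA against DSS. *Cd3e*, a chain of the T cell receptor complex, had 1 to 6 counts per library and *Ncr1*, of NK cells, 0 counts in 8 of 9 libraries. The DSS + EA mice, highest in the 10 genes, had macrophage and neutrophil marker sums below those of the DSS mice and above those of the control mice. Their T and NK cell marker sums were above those of both groups, but none of the 7 tested T and NK cell markers was called against control. The part of cell composition in the levels of the 10 genes was not tested.

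Within the DSS group, the order of the summed 10 genes (81.7, 117 and 259 CPM in mice 1, 2 and 3) was the order of the macrophage and monocyte markers (1689, 2196 and 3576 CPM), the neutrophil markers (4639, 25626 and 28225 CPM), the T and NK cell markers (13.8, 26.1 and 37.1 CPM) and the fibroblast and smooth muscle markers (5688, 5888 and 8808 CPM). The reverse order held for the epithelial markers (7084, 2774 and 1382 CPM) and the pancreatic acinar markers (95.2, 49.1 and 42.4 CPM). The pancreatic sum was nearly all *Cela1* in these DSS mice. The remaining marker lists, endothelial (117, 158 and 140 CPM) and B and plasma cell (554, 624 and 278 CPM), followed neither order. These orders are a description of 3 mice. Within the DSS + EA group the pancreatic markers (530, 30059 and 14987 CPM) were highest in the mouse with the lowest summed level of the 10 genes. DSS + EA mouse 1 had the lowest pancreatic level of its group and 848 CPM of the 10 genes, against at most 259 CPM in the control and DSS mice. It was not free of pancreatic counts: in 9 of the 10 pancreatic genes every DSS + EA mouse lay above every other mouse. The part of pancreatic tissue in the levels of the 10 interferon-inducible genes was not tested.

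**Figure D5:**
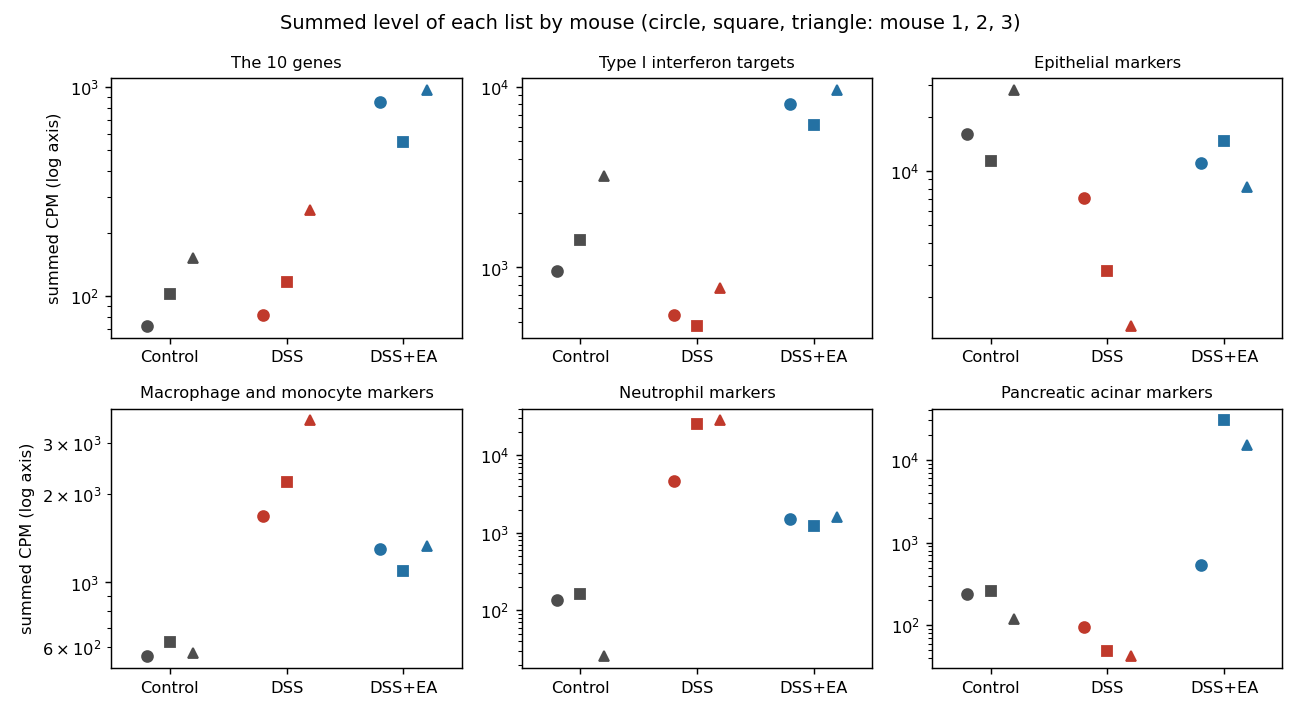
Summed level in CPM (log axis) of the 10 genes and of 5 marker or target lists by mouse, with 1 symbol per mouse. The 10 genes and the type I interferon targets are highest in the DSS + EA mice, the neutrophil and macrophage markers in the DSS mice, and the pancreatic acinar markers in DSS + EA mice 2 and 3.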

How the data were processed

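Colon RNA of 9 mice was deposited by the authors as raw read counts, 1 whole number for each gene and library, with no scaling. Libraries were full-length cDNA amplified by PCR and read on the PromethION platform. The submitters' processing notes name the genome build mm10, and the aligner, counting tool, annotation and use of strand are not given in the sources used here. How reads were shared among near-identical or overlapping genes is thus unknown, and reads without molecular identifiers are not independent molecules.

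Of 27733 lines, 14 held no counts, and of 27719 genes kept, 5620 were at 0 in all libraries. No 2 libraries held identical values. Counts were fitted with edgeR 4.0.16 in R 4.3.3 (TMM factors, filterByExpr by group, prior count 0.125, 1 quasi-likelihood fit over the 9 libraries with group as the only term). A gene was called at a Benjamini-Hochberg adjusted p under 0.05 over the 12566 genes tested. The standard error is the log2 fold change divided by the root of F. CPM used TMM-adjusted library totals. Ratios of summed counts carry exact binomial 95% intervals, and bounds use a floor of 3 counts. Library totals of 2627695 to 4235576 counts limit what can be said of genes with few counts.

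Positions came from GENCODE M21 (GRCm38, 22022 of 22036 Ensembl identifiers matched) and promoters from RefSeq (GRCm38.p6). Coding sequences were compared with 25 other GTPase genes each. The fit was tested on simulated counts. Alternatives were DESeq2 1.42.0, other scalings and filters, each comparison alone, a replicate block, the study's thresholds and leaving out each mouse. Named genes were all 10 genes, any gene of the GTPase, signalling and CXCR3 lists, up to 4 genes of smallest P with DSS from each other list, and the 5 genes most like the 10 over the libraries; *Cd3e* and *Ncr1* were named besides, as defining markers. A gene of the signalling list is not reported here. The 10 genes and all lists were chosen with earlier results of these data known.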

Additional observations from a re-analysis of the deposited data

How the results depend on the processing

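All 10 genes had a positive log2 fold change for DSS + EA against control in every alternative run. Against the numbers of genes called by edgeR (5144 for DSS against control, 4457 for DSS + EA against DSS and 457 for DSS + EA against control; 5, 7 and 10 of the 10 genes), the thresholds of the study left 1280, 806 and 261 genes, and 1 and 4 of the 10 genes in the first 2 comparisons. For DSS + EA against control DESeq2 called 703 genes and the 2 groups fitted alone 1149. Without DSS + EA mice 2 and 3, chosen after seeing the data, 807 genes were called against DSS and 54 against control, with 4 and 3 of the 10 genes. Leaving out 1 mouse at a time gave 4090 to 6400, 3033 to 6061 and 110 to 772 genes, and 2 to 6, 6 to 9 and 4 to 10 of the 10 genes. The cause of these differences was not tested.

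The replicate numbers did not pair the mice: the 9 correlations between the deviations of same-numbered mice ran from -0.16 to 0.105, and 1 library of 9 correlated best with its own number. With the replicate number as a block, 4543, 3829 and 364 genes and 4, 7 and 9 of the 10 genes were called. The calls of *Gbp2* for DSS against control (1.41, adjusted p = 0.0565) and of *Cxcl9* for DSS + EA against control (3.89, adjusted p = 0.0669) were the ones lost there. Direction changed in 6 values that did not pass the test. With each mouse left out, the log2 fold change for DSS against control ran from -0.066 (without DSS mouse 3) to 0.84 for *Gbp3* and from -0.41 (without DSS mouse 3; -0.24 without control mouse 1) to 0.40 for *Gbp7*, which was at -0.0017 with the replicate block. For DSS + EA against DSS, *Gbp6* ran from -0.054 (without DSS + EA mouse 3) to 0.80, and was at -0.028 without DSS + EA mice 2 and 3. Over the single genes, 460 values kept their direction and side of the threshold, 63 lost the call and 6 gained it. *Cxcl9* gave no value with a mean of at least 20 counts, nor for DSS against control and DSS + EA against control with the 2 groups alone. Other scalings moved the median of all genes most in DSS + EA against DSS with plain library totals (-0.08 on the log2 scale). Genes with few counts, such as *Ifng*, *Cxcl9* and *Cxcl11*, are limited by depth.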

Other observations

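Outside the lists, 5 genes had the levels most like those of the 10 genes across the 9 libraries, by Pearson's r of log2 CPM with the mean of the scaled log2 CPM of the 10 (prior count 2). They were *Ruvbl1*, an ATPase of chromatin remodelling complexes (r = 0.974), *Sp110*, an interferon-inducible nuclear body protein (0.974), *Zc3hav1*, the zinc finger antiviral protein (0.973), *Slfn5* of the Schlafen family (0.969) and *Ifi204* of the AIM2-like receptor family (0.966). The 9 points share group, library and depth, and the values are a description.

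Likeness of order across the mice went with unlike sizes. *Slfn5* had control counts of 31, 37 and 40, DSS counts of 23, 70 and 69 and DSS + EA counts of 357, 245 and 487, and rose by 3.00 on the log2 scale for DSS + EA against DSS (adjusted p = 0.000762, edgeR). *Ruvbl1* had control counts of 89, 74 and 61 and DSS + EA counts of 125, 104 and 138, and its log2 fold change between these groups was 0.77 (adjusted p = 0.0783, edgeR). *Ifi204* rose by 1.95 with DSS (adjusted p = 0.037, edgeR) and by 1.74 with DSS + EA against DSS (adjusted p = 0.0341, edgeR), and DSS + EA mouse 2, with 49 counts, was within the DSS range of 14 to 65.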
